A study of Mus musculus with 2 samples.

Results

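The genes described here are 35 members of the interferon response and of MHC class I antigen presentation, chosen by name from the 32285 genes that the deposited count tables hold, and all 35 were found. They are followed across islet cell types and between 2 droplet single-cell RNA libraries (10x Chromium), which read the 3′ ends of RNAs. The CDS library came from islets of DIO mice, as the labels call them, given 10 mg/kg of an agent labelled CDS, and the saline library from DIO mice given saline. Both treatments lasted 2 weeks, both libraries share the DIO background, and the labels do not expand the term. The title of the series speaks of an alpha2A-adrenergic receptor antagonist that acts peripherally, but no label ties the name CDS to it. There was 1 library in each group, and the sources used here do not give the number, age or strain of the animals behind it. No difference below therefore has a replicate check and no p-value was computed. The 95% intervals cover counting error only, and the effect of CDS cannot be told apart from any other difference between the libraries.

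Interferons are cytokines that infected or activated cells release. Type I interferons act through a receptor on nearly all cells and, through the kinases Jak1 and Tyk2, activate a complex that holds Stat2 and Irf9 and binds the interferon-stimulated response element in the promoters of antiviral genes. Interferon gamma acts through another receptor, and its signal reaches promoters at the gamma-activated sequence. Both raise the MHC class I pathway, in which Tap1 and Tap2 carry peptides into the endoplasmic reticulum, Tapbp (tapasin) helps to load them, and heavy chains such as H2-K1 and H2-D1 carry them with B2m to the cell surface for CD8+ T cells to read. In islets the pathway is best known from type 1 diabetes, where islet cells of people show interferon-induced genes and raised class I.

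After filters and removal of called doublets 6158 CDS cells and 10974 saline cells remained, with medians of 19118 and 9794.5 UMIs per cell (unique molecular identifiers, tags that mark single RNA molecules at capture). The labels give the cell type as beta cells of islets, but the libraries also held other cells, which were sorted into classes by marker genes that are not members. Beta-like cells numbered 3342 in the CDS library and 4726 in the saline library, alpha-like cells 906 and 792, delta-like cells 427 and 468, endothelial-like cells 235 and 306, and macrophage-like cells 140 and 144. These 5 classes had at least 100 cells in each library. Lymphoid cells were few in the CDS library, which held 21 T-like and 31 B-like cells, against 1440 and 1048 in the saline library. Stromal-like cells numbered 31 and 96, dendritic-like cells 5 and 54, and PP-like cells 86 and 160. The libraries shared 25 cell barcodes, and no called member ratio in the 5 larger classes moved beyond its error or changed direction when those cells were left out. Other values are given with those cells included.

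The level of a member in a class is its UMIs per 1000000 UMIs of that class (CPM), and levels are compared here only for the same gene. The total includes hormone RNA. The 13 beta cell markers, insulin among them, summed to 471200 CPM in CDS beta-like cells, and the 10 alpha cell markers to 123300 in CDS alpha-like cells. With hormone, enzyme and mitochondrial genes left out of the total, the lowest saline class of H2-D1 and Tap2 moved from beta-like to alpha-like cells. The order among endocrine classes thus depends on the total. In the saline library the highest level stood in dendritic-like cells for 20 of the 35 members and the lowest in acinar-like cells for 23, among 12 classes of at least 30 cells. In the CDS library, which had 9 such classes, endothelial-like cells stood highest for 15 members and macrophage-like cells for 13. B2m, the light chain of every class I molecule, had 1752 CPM in macrophage-like cells of the CDS library, the highest of those 9, 698 in endothelial-like, 71.9 in alpha-like, 54.9 in delta-like and 41.1 in beta-like cells. In the saline library B2m had 2826 CPM in dendritic-like, 1552 in macrophage-like, 1102 in T-like, 584 in endothelial-like, 49.2 in alpha-like, 46.3 in delta-like and 42.4 in beta-like cells. Endocrine cells thus carried B2m at a small fraction of the immune and endothelial level in both libraries.

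H2-K1 followed a flatter order. It had 1253 CPM in macrophage-like and 1148 in endothelial-like cells of the CDS library, whose intervals overlapped, and 498 in delta-like, 371 in alpha-like and 314 in beta-like cells. In the saline library H2-K1 had 2489 CPM in dendritic-like, 1441 in T-like, 1383 in macrophage-like, 959 in endothelial-like, 392.2 in delta-like, 272 in beta-like and 263 in alpha-like cells. Ifi27, an interferon-inducible membrane protein of mitochondria and nuclear envelope, had 241 CPM in CDS and 219 CPM in saline stromal-like cells, the highest of the classes. The intervals overlapped those of the next class, endothelial-like cells at 173 in the CDS library and acinar-like cells at 163 in the saline library. In the saline library acinar-like cells came first when hormone, enzyme and mitochondrial genes were left out of the total. Ifih1, the sensor of long double-stranded RNA also called MDA5, was highest in alpha-like cells of the CDS library, at 71.0 CPM, and its interval did not overlap that of the next class, endothelial-like cells at 53.7. In the saline library Ifih1 had 103 CPM in alpha-like cells, below 239 in dendritic-like and 155 in macrophage-like cells.

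**Figure D1:**
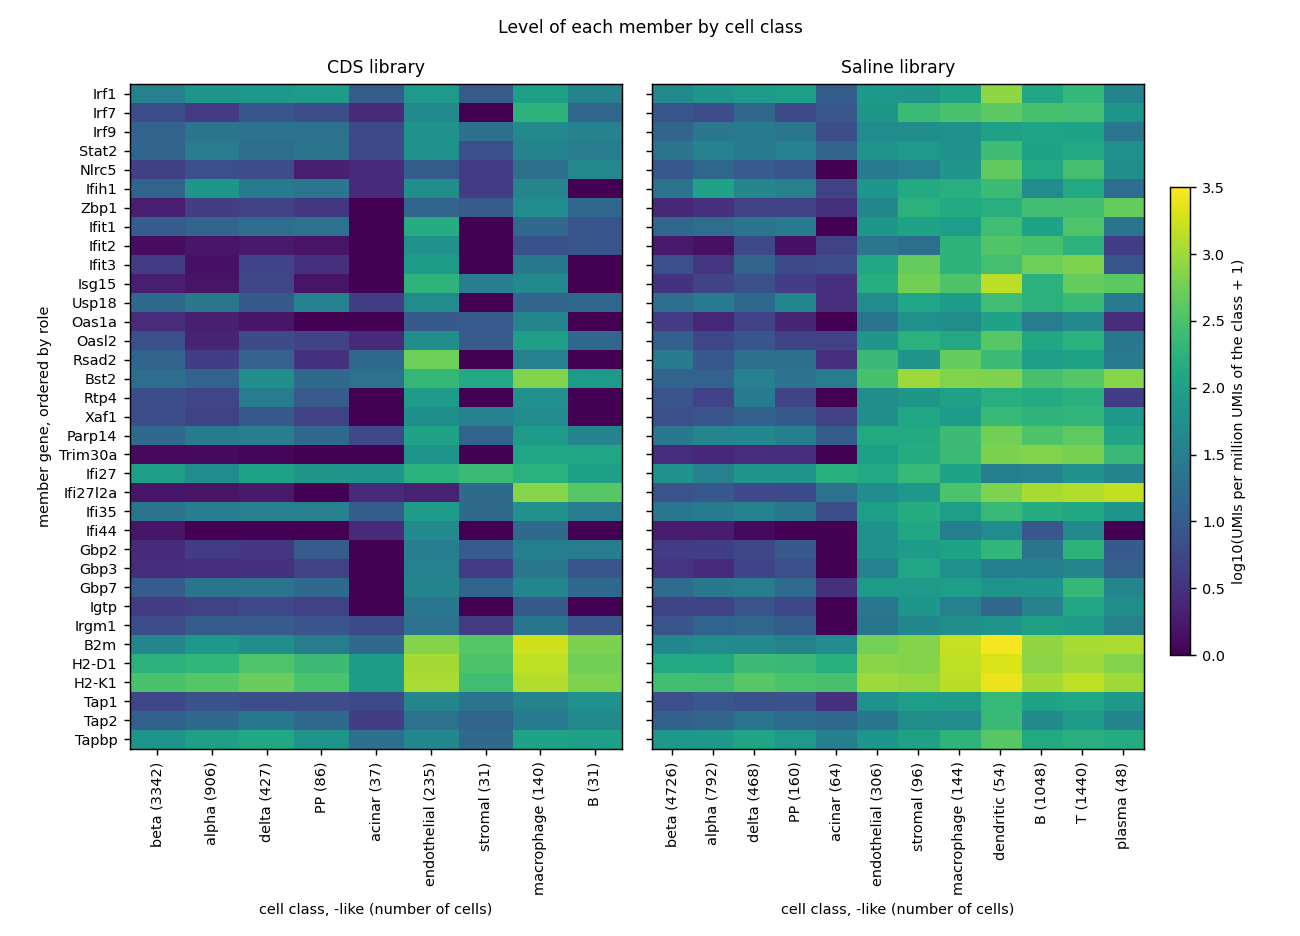
Levels of the 35 members, in rows by role, in each cell class of at least 30 cells, in columns with their cell numbers, for the CDS library (left) and the saline library (right). Colour gives log10 of CPM plus 1. The class I genes B2m, H2-D1 and H2-K1 are bright in most non-endocrine classes, with acinar-like cells an exception. In stromal-like cells of the CDS library H2-K1, at 262.5 CPM, lies below the endocrine classes. T-like and dendritic-like cells of the saline library are bright for most members.

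Promoters are shown because binding sites for the factors above in promoters are known to tie such genes into 1 response. RefSeq promoter windows (GRCm38.p6, 250 bases before to 50 after each gene's start) matched 27 of the 35 members by symbol. The core of the interferon-stimulated response element, searched as GAAANNGAA on both strands, was found in the windows of 16 of those 27 members, and 9.76% of all 27025 genes in the table had it. The core of the gamma-activated sequence, TTCNNNGAA, which reads the same on both strands, was found for 7 of the 27 members, Bst2, Gbp7, Ifi35, Ifit2, Igtp, Irf1 and Oas1a, and for 9.55% of all genes. The patterns share the letters GAA, so 1 stretch can match both. A match is a description of letters, and its absence says only that these letters are not in this window.

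The windows below belong to members whose values the comparisons turn on. B2m, H2-K1 and H2-D1 ranked among the members called in the same direction in most classes, with Ifi27, which is not in the table. Rsad2, Ifit3 and Isg15 were added after their values were seen, because they stood near lowest in macrophage-like cells of the CDS library. Ifit2, which stood lowest there, is not printed, and neither of its 2 windows held a match to GAAANNGAA. Capitals mark matches to GAAANNGAA on either strand.
B2m, GRCm38.p6, chr2:122147437-122147736, plus strand: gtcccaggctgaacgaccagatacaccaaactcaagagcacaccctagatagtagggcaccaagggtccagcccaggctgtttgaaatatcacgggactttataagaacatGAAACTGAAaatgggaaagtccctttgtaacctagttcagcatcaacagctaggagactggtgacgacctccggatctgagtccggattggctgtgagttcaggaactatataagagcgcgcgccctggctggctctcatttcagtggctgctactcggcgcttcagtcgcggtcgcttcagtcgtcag
H2-K1, GRCm38.p6, chr17:34000298-34000597, minus strand: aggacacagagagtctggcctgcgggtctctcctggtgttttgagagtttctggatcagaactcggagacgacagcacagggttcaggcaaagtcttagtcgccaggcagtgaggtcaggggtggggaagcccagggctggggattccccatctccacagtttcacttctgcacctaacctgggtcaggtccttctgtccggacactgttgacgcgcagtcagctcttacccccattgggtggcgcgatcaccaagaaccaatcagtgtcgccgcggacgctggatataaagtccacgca
H2-D1, GRCm38.p6, chr17:35262844-35263143, plus strand: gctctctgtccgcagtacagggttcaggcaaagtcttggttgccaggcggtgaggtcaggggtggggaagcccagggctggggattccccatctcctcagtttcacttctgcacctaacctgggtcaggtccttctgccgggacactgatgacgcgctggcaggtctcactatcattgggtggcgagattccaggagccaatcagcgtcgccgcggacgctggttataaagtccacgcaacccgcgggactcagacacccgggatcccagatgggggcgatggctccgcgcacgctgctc
Rsad2, GRCm38.p6, chr12:26456403-26456702, minus strand: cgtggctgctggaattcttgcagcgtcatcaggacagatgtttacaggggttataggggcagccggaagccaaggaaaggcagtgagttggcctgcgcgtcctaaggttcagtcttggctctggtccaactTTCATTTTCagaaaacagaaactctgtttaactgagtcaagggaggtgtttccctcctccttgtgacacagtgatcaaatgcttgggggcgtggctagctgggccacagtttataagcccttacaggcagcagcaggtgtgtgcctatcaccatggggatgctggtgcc
Ifit3, GRCm38.p6, chr19:34583279-34583578, plus strand: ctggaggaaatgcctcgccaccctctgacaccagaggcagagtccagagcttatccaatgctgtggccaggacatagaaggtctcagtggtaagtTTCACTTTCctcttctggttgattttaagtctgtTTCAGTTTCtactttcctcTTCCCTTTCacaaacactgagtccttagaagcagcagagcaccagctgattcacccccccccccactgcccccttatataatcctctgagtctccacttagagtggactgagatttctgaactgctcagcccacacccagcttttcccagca
Isg15, GRCm38.p6, chr4:156200769-156201068, minus strand: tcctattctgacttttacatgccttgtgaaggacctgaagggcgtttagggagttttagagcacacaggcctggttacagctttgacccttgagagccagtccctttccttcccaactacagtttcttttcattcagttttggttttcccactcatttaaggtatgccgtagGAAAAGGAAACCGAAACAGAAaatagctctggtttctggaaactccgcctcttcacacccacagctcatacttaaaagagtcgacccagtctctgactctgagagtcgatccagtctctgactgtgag
B2m and Rsad2 each held 1 match, which began 139 and 119 bases before the start. Ifit3 held 3 matches spread over the window, Isg15 held 3 that overlap each other in 1 run, and H2-K1 and H2-D1 held none in these letters.

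In beta-like cells the class I heavy chains H2-D1 and H2-K1, Ifi27 and Bst2 were higher in the CDS library, while 9 of 17 antiviral effectors were lower. Several of the 9, among them Ifi27l2a, Trim30a, Isg15 and Ifit3, stood high in lymphoid cells of the saline library. In a Leiden clustering of all cells different clusters held the most beta-like cells of each library. Cluster 1 had 1890 CDS and 516 saline cells and cluster 0 had 375 CDS and 2436 saline cells, and the values below are over the whole class. The measure is the ratio CDS over saline of scaled CPM, UMIs summed over the class and scaled with TMM factors, which set the middle of all genes to no change. A member counts as measured with at least 50 UMIs over both libraries. It is called higher when its ratio lies 25% or more above 1, and lower when it lies 20% or more below 1, provided the interval does not include 1. All 35 members were measured in beta-like cells, of which 6 were higher and 14 lower. Of the 15257 genes measured in these cells 27.2% were higher and 18.2% lower by the same rule. The members' median log2 ratio was -0.05 and that of all genes 0.06. With plain CPM, which moved the median of all genes by -0.39, the members split into 3 higher and 22 lower. Median log2 ratios were then -0.44 for the members and -0.33 for all genes. The share of all genes called with plain CPM is not given here, so those counts lack a background.

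Class I presentation stood highest among the roles in beta-like cells, with 4 of 6 genes higher, none lower and a median log2 ratio of 0.36. After the adjustment for gene length described further below that median was 0.06, still the highest of the roles. H2-D1 (ENSMUSG00000073411, chromosome 17, 35262730 to 35267499 on mm10), a heavy chain that holds the peptide, had 17406 UMIs in CDS beta-like cells and 10198 in saline ones, or 201 and 113 scaled CPM. Its ratio was 1.78 (95% interval 1.73 to 1.82). H2-K1 (ENSMUSG00000061232, chromosome 17, 33996017 to 34000347), the other classical heavy chain of the list, had 31128 and 21439 UMIs, or 359 and 238 scaled CPM, a ratio of 1.51 (1.49 to 1.54). Both kept a ratio above 1 with plain CPM, at 1.35 for H2-D1 and 1.15 for H2-K1. Their UMIs were spread widely: 797 CDS cells and 948 saline cells held 50% of the H2-D1 UMIs, and 904 and 1228 cells held 50% of the H2-K1 UMIs.

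B2m (ENSMUSG00000060802, chromosome 2, 122147686 to 122153083) had 4082 UMIs in CDS beta-like cells and 3342 in saline ones, or 47.1 and 37.0 scaled CPM. Its ratio of 1.27 (1.21 to 1.33) turned to 0.970 with plain CPM and to 0.970 after an adjustment for gene length. Tap2, a subunit of the peptide transporter, had 1102 and 888 UMIs and a ratio of 1.29 (1.18 to 1.41), which turned to 0.985 with plain CPM. In the CDS library 433 cells held 50% of the B2m UMIs and 330 those of Tap2, and in the saline library 521 and 352 cells. Tap1, the other subunit, had 462 and 491 UMIs and a ratio of 0.979, and Tapbp had 6292 and 5695 UMIs and a ratio of 1.15. Of the 4 class I genes called, H2-D1 and H2-K1 thus kept their direction under each scaling tried, and B2m and Tap2 did not.

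Of the 17 antiviral effectors and genes of the ISG15 system 2 were higher and 9 lower in beta-like cells, with a median log2 ratio of -0.33, and the 9 include Ifi27l2a and Trim30a. Ifi27 (ENSMUSG00000064215, chromosome 12, 103434211 to 103440239) had 9039 UMIs in the CDS library and 4697 in the saline library, or 104 and 52.1 scaled CPM. It had the highest ratio of all members in these cells, 2.00 (1.93 to 2.08). In the CDS library 389 cells held 50% of its UMIs, and in the saline library 461 cells. Bst2, or tetherin, which holds budding virus at the cell surface, had 1745 and 986 UMIs and a ratio of 1.84 (1.70 to 1.99). With plain CPM Ifi27 stood at 1.53. The UMIs of Bst2 were held more narrowly in the CDS library, where 120 of 3342 cells made up 50%, than in the saline library, where 218 of 4726 did.

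The lowest ratios in beta-like cells belonged to Ifi27l2a, a relative of Ifi27 that lies next to it on chromosome 12 (103442167 to 103443680, ENSMUSG00000079017), and to Trim30a, a TRIM protein that in mouse dampens Toll-like receptor signalling. Ifi27l2a had 56 CDS and 538 saline UMIs, or 0.646 and 5.96 scaled CPM, a ratio of 0.108 (0.0808 to 0.143). Trim30a had 24 and 147 UMIs, or 0.277 and 1.63 scaled CPM, a ratio of 0.170 (0.106 to 0.263). The 56 CDS UMIs of Ifi27l2a lay in 50 cells and the 538 saline UMIs in 498, so most of those cells had 1. Of these UMIs 50% lay in 22 CDS and 229 saline cells, and 50% of those of Trim30a in 10 and 67. Both were high in lymphoid cells of the saline library, where Ifi27l2a had 1259 CPM in T-like cells, 1086 in B-like cells and 1512 in plasma-like cells, and Trim30a had 614 in T-like and 677 in B-like cells, against 6.83 and 1.87 in beta-like cells. The other endocrine classes of the saline library held Ifi27l2a at a like low level, 8.30 CPM in alpha-like, 4.88 in delta-like and 5.17 in PP-like cells, and acinar-like cells held 19.8 on 10 UMIs. Effectors named further below were also higher in saline T-like than in saline beta-like cells, with 473 CPM for Isg15, 656 for Ifit3 and 104.5 for Rsad2 in T-like cells. Whether the low endocrine levels of any of these genes come from the endocrine cells themselves was not tested.

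Values of lymphoid markers in beta-like cells moved the same way. The 10 B cell markers summed to 5.51 CPM in the CDS library and 25.3 CPM in the saline library, with all 10 detected in each. The 13 T cell markers summed to 0.343 and 7.32 CPM, with 9 detected in the CDS library, where Trac, Cd8a, Cd8b1 and Icos were at 0, and 13 in the saline library. A narrower set held the beta-like cells with no UMI of B, T, natural killer, macrophage, dendritic, neutrophil or endothelial markers, 949 CDS and 1365 saline cells. Plasma, stromal and acinar markers were not screened. There Ifi27l2a still had a ratio of 0.0877, H2-D1 1.76, H2-K1 1.47, Ifi27 2.08, Rsad2 0.534 and Nlrc5 0.581. In the same cells B2m, at 1.18, and Tap2, at 1.15, were no longer past the limit, and Isg15 turned to 1.05. Macrophage markers summed to 32.2 CPM in CDS and 28.2 CPM in saline beta-like cells, and endothelial markers to 13.6 and 17.5. RNA free in the droplets was not measured directly, and its part in the low levels was not tested.

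**Figure D2:**
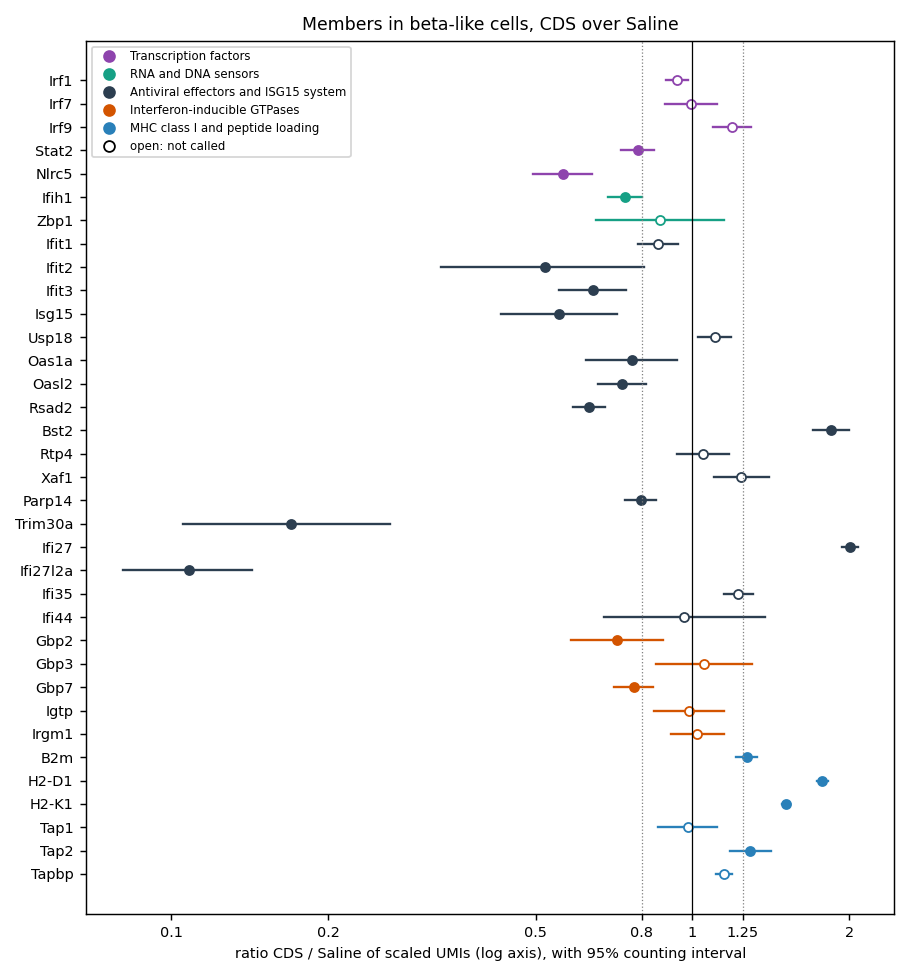
Ratio CDS over saline of each member in beta-like cells, on a log axis, with its 95% counting interval and coloured by role. Filled points passed a limit (dotted lines, 20% below and 25% above 1), and Ifi27 at 2.00 and Ifi27l2a at 0.108 mark the ends, while B2m and Tap2 turn below 1 with plain CPM.

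Among the other effectors, Isg15, a ubiquitin-like modifier, had 96 UMIs in CDS and 180 in saline beta-like cells, or 1.11 and 2.00 scaled CPM. Its ratio was 0.555 (0.429 to 0.715), with 50% of the UMIs in 19 CDS and 52 saline cells. That ratio turned to 1.22 when every cell was thinned to 3000 UMIs, so its direction depended on the setting. Rsad2, or viperin, which makes a nucleotide that ends viral RNA chains, had 1251 and 2058 UMIs, or 14.4 and 22.8 scaled CPM, a ratio of 0.633 (0.589 to 0.679). Of its UMIs 50% lay in 144 CDS cells but in 76 saline cells, a narrower set in the larger class. Ifit3, a partner of the RNA-binding Ifit1, had 301 and 487 UMIs, or 3.47 and 5.40 scaled CPM, a ratio of 0.643 (0.555 to 0.744), but only 8 CDS cells and 11 saline cells held 50% of them. As a mean over cells, which gives each cell the same weight, the ratio of Ifit3 was 0.968.

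The same few-cell pattern held for Ifi44, where 10 or 12 cells made up 50% of its UMIs. Ifit1 itself, with 931 and 1128 UMIs, stood at 0.859 and was not called. Oasl2 and Oas1a, of the family that makes or resembles makers of 2′-5′ oligoadenylate, were at 0.732 and 0.764, of which Oas1a turned to 1.09 when cells were thinned, and Parp14, an ADP-ribosyltransferase, at 0.795. Usp18, which removes Isg15 from proteins and dampens the interferon receptor, was at 1.10, Ifi35 at 1.23, Xaf1 at 1.24, Rtp4 at 1.05 and Ifi44 at 0.965, all within the limits, and with plain CPM these 5 stood between 0.736 and 0.947. Ifit2 had only 32 and 64 UMIs and a ratio of 0.520 (0.329 to 0.807).

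Of the 5 transcription factors none was higher and 2 were lower in beta-like cells. Nlrc5, the transactivator of class I genes, had 356 CDS and 657 saline UMIs, or 4.11 and 7.28 scaled CPM, held at 50% by 115 and 188 cells. Its ratio was 0.564 (0.494 to 0.643), the opposite direction to H2-D1 and H2-K1. Stat2 was at 0.785, Irf1 at 0.935, Irf7 at 0.994 and Irf9 at 1.19. Of the sensors, Ifih1 was lower at 0.743, and Zbp1, which reads Z-form nucleic acid, had 95 and 114 UMIs and a ratio of 0.867. Of the 5 interferon-inducible GTPases, which attack the vacuoles of microbes, Gbp7 at 0.771 and Gbp2 at 0.717 were lower, while Gbp3, Igtp and Irgm1 stood between 0.985 and 1.05, or between 0.751 and 0.803 with plain CPM.

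Ratios of all genes followed gene length in these libraries, and the members are not neutral to it. The shortest 20% of measured genes in beta-like cells had a median log2 ratio of 0.49 and the longest 20% one of -0.35, and 10 of the 35 members were among the shortest. Nlrc5, which spans 92.9 kb, is among the long genes, and H2-D1 and H2-K1, at 4.77 and 4.33 kb, among the short ones. After subtraction of the running median of genes of like length, the members' median in beta-like cells was -0.35. H2-D1 then stood at a log2 ratio of 0.39, H2-K1 at 0.11, Ifi27 at 0.61 and Nlrc5 at -0.58.

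In alpha-like cells, which make glucagon, 4 of 6 class I genes were higher, 4 of the 10 effectors measured were lower, and 7 effectors were too rare to measure. Of 27 measured members 5 were higher and 6 lower, against 20.0% and 12.1% of the 11773 genes measured. The 5 were Ifi27, H2-D1, B2m, H2-K1 and Tapbp. Ifi27 had 545 CDS and 214 saline UMIs and a ratio of 1.70 (1.45 to 2.01), and H2-D1 had 2150 and 871 UMIs and a ratio of 1.65 (1.53 to 1.79). B2m had 782 and 326 UMIs, or 75.4 and 46.9 scaled CPM, a ratio of 1.61 (1.41 to 1.83). H2-K1 stood at 1.55 and Tapbp at 1.48. After the adjustment for gene length Ifi27, at a log2 ratio of 0.392, and Tapbp, at 0.371, were still past the limit. H2-D1 at 0.304, B2m at 0.294 and H2-K1 at 0.183 were not. The summed UMIs were widely held, with 50% of the UMIs of Ifi27, H2-D1 and B2m in 60, 149 and 106 CDS cells and in 43, 130 and 78 saline cells. The lowest of the better-measured ratios was that of Nlrc5, with 66 and 90 UMIs and a ratio of 0.491 (0.352 to 0.682). Ifih1 had 772 CDS and 685 saline UMIs and a ratio of 0.754 (0.680 to 0.837), and Parp14 a ratio of 0.789 (0.665 to 0.938). Rsad2 had 36 and 53 UMIs and a ratio of 0.455, Ifi27l2a 6 and 55 UMIs and a ratio of 0.0730. The T cell markers summed to 1.56 CPM in CDS and 12.5 CPM in saline alpha-like cells, and their part in the last ratio was not tested.

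In delta-like cells, which make somatostatin, Bst2, Ifi27 and the class I chains were higher. Of the 27 measured members 5 were higher and 5 lower, against 18.0% and 11.8% of 11127 genes. The share of members higher was thus near that of all genes. With plain CPM, which moved the median of all genes by -0.14, 4 members were higher and 10 lower. Median log2 ratios were then -0.40 for the members and -0.105 for all genes. Bst2 led with 316 CDS and 151 saline UMIs and a ratio of 1.75 (1.44 to 2.14). Ifi27 had 615 and 321 UMIs and a ratio of 1.61 (1.40 to 1.84), and H2-D1 had 2159 and 1162 UMIs and a ratio of 1.56 (1.45 to 1.67). H2-K1, at 1.40, and B2m, at 1.31, were the other members counted as higher. After the adjustment for gene length H2-D1 stood at a log2 ratio of 0.292, H2-K1 at 0.095 and B2m at 0.06, none past the limit. Ifit3, below the limit of 100 UMIs for naming and named after its values were seen, had the lowest called ratio, 0.374 (0.224 to 0.610) on 25 CDS and 56 saline UMIs. Irf7, which drives interferon alpha genes, had 48 and 64 UMIs and a ratio of 0.629 (0.423 to 0.928). Usp18 stood at 0.658 (0.454 to 0.951) with 55 and 70 UMIs and Stat2 at 0.698 (0.534 to 0.912) with 105 and 126 UMIs. From 17 to 29 CDS cells and from 20 to 38 saline cells held 50% of the UMIs of these 3, against 33 to 103 and 33 to 109 cells for Bst2, Ifi27 and H2-D1. No member was lower in delta-like cells once they were thinned to 3000 UMIs, where 14 members could still be measured. T cell markers in delta-like cells summed to 0.805 CPM in the CDS library and 10.4 CPM in the saline library, and B cell markers to 4.51 and 24.2, and their part in the lower ratios was not tested.

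In macrophage-like cells 10 of 16 measured antiviral effectors were lower in the CDS library and 2 higher. Of 33 measured members 3 were higher and 22 lower, against 17.6% and 12.0% of the 6080 genes measured. The members' median log2 ratio was -0.69, or -0.88 after the adjustment for gene length, and that of all genes was 0.05. Ifit2, an Ifit protein that binds viral RNA, had 9 UMIs in 140 CDS cells and 163 in 144 saline cells, a ratio of 0.0399 (0.0179 to 0.0776). Rsad2 had 44 and 416 UMIs, or 33.9 and 444 scaled CPM, a ratio of 0.0764 (0.0547 to 0.104). Ifit3 had 34 and 162 UMIs and a ratio of 0.152 (0.102 to 0.221). Isg15 had 64 and 293 UMIs, Ifit1 20 and 81, and Usp18 18 and 75, with ratios of 0.158, 0.178 and 0.173.

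These UMIs came from few cells. In the saline library 4 of 144 macrophage-like cells held 50% of the Ifit2 UMIs, 6 held 50% of those of Rsad2 and 5 of those of Ifit3, and the highest cell had 51 UMIs of Rsad2. In the CDS library 2 cells held 50% of the 44 Rsad2 UMIs and 4 cells 50% of the 34 Ifit3 UMIs. The number of cells with any Rsad2 UMI was 15 of 140 in the CDS library and 38 of 144 in the saline library. CDS cells were the deeper ones, with a median of 9525 UMIs against 5242 in the saline cells. Where all cells were thinned to 3000 UMIs and the shares of cells with a UMI were compared, 1 of the 13 members that could still be measured was lower.

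The other roles pointed the same way in macrophage-like cells. All 4 measured GTPases were lower, from 0.327 for Gbp2 to 0.491 for Gbp7, and both sensors were, Ifih1 at 0.274 and Zbp1 at 0.412. Nlrc5 was at 0.308, Irf7 at 0.649 and Stat2 at 0.657, while Irf1, at 0.994, and Irf9, at 0.816, were not called. Among the effectors Bst2 at 1.13, Oas1a at 0.817, Oasl2 at 0.798 and Ifi35 at 0.751 were not called. Tap1 at 0.482, Tap2 at 0.619 and Tapbp at 0.635 were lower. The class I chains went another way, with B2m higher at 1.27 (1.19 to 1.36) on 2414 CDS and 1371 saline UMIs, H2-D1 at 1.14 and H2-K1 at 1.02. B2m turned to 0.988 after the adjustment for gene length.

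Ifi27l2a, lower in beta-like, alpha-like and endothelial-like cells of the CDS library, was higher in the macrophage-like cells of that library. It had 1005 CDS and 281 saline UMIs, or 774 and 300 scaled CPM, a ratio of 2.58 (2.26 to 2.96). Of its UMIs 50% were in 14 CDS cells and in 11 saline cells, and the highest CDS cell had 103. Ifi27 had 235 and 92 UMIs and a ratio of 1.84 (1.44 to 2.38), spread over 95 CDS and 50 saline cells. T cell markers in macrophage-like cells summed to 7.98 CPM in the CDS library and 24.9 in the saline library, and dendritic markers to 95.8 and 126. The defining macrophage markers were all 11 detected in both, at 20960 and 17360 CPM.

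In endothelial-like cells the highest ratios were those of Ifit2, Rsad2 and Ifit1, and 2 or 3 CDS cells held 50% of the UMIs of each. All 35 members were measured, of which 10 were higher and 11 lower, against 19.9% and 12.3% of 7924 genes. With plain CPM, which moved the median of all genes by -0.14, they were 7 and 15. Median log2 ratios were then -0.141 for the members and -0.054 for all genes. Ifit2 had 110 CDS and 41 saline UMIs and a ratio of 2.86 (1.98 to 4.20), but 2 of 235 CDS cells held 50% of them and 9 cells held all. Rsad2 had 1004 and 427 UMIs, or 567 and 226 scaled CPM, a ratio of 2.51 (2.24 to 2.82), with 3 CDS cells and 4 saline cells at 50% and 253 UMIs in the highest CDS cell. Ifit1 had 270 and 126 UMIs and a ratio of 2.29 (1.84 to 2.85), with 3 CDS cells and 6 saline cells at 50%.

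The share of cells with Rsad2 went the other way. At 3000 UMIs per cell the ratio of the shares of endothelial-like cells with a UMI was 0.804 for Rsad2 and 0.579 for Isg15, whose summed ratio was 1.38. By such shares 0 members were higher and 1 lower in this class, of 16 measured. The low end held Zbp1, with 24 CDS and 76 saline UMIs and a ratio of 0.337 (0.204 to 0.539), Gbp7, at 0.501 (0.371 to 0.671), and Gbp2, at 0.548 (0.390 to 0.763). In the CDS library 3 cells each held 50% of the UMIs of these GTPases, and in the saline library 10 and 8 cells did. Ifi27l2a had 2 and 93 UMIs, a ratio of 0.0229 (0.00274 to 0.0852). T cell markers in endothelial-like cells summed to 3.76 CPM in the CDS library and 13.4 in the saline library, and B cell markers to 144 and 235, and their part in that ratio was not tested. Class I genes were spread more widely, with H2-D1 at 1.59 (1.48 to 1.71) on 2009 and 1348 UMIs, H2-K1 at 1.32 and B2m at 1.32. After the adjustment for gene length H2-D1 stood at a log2 ratio of 0.276, H2-K1 at 0.0 and B2m at 0.022, none past the limit. Tapbp was lower at 0.668 and Nlrc5 at 0.409.

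**Figure D3:**
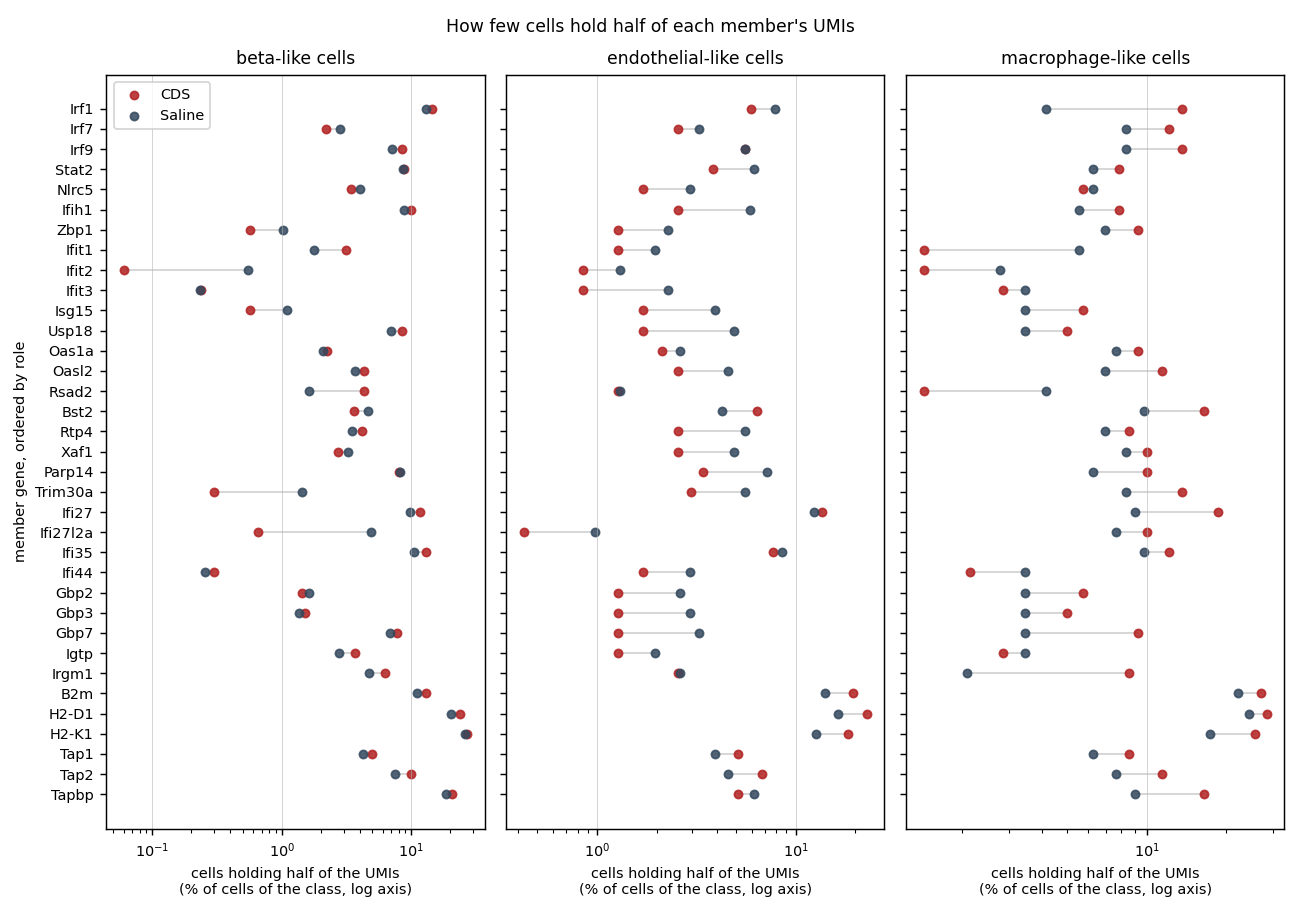
Smallest share of the cells of a class that holds 50% of a member's UMIs, on log axes, in beta-like cells (left), endothelial-like cells (middle) and macrophage-like cells (right), with CDS in red and saline in dark blue. B2m, H2-D1 and H2-K1 lie to the right in each panel, and Ifit2 in endothelial-like cells lies at 0.851% of cells in the CDS library and 1.31% in the saline library.

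To see how many cells carried several induced members at once, 10 core induced members were counted per cell. These were Ifit1, Ifit2, Ifit3, Isg15, Irf7, Oasl2, Rsad2, Usp18, Ifi44 and Zbp1, and every cell was thinned to 3000 UMIs. The list was chosen with earlier results of these data known. It leaves out Ifi27, Bst2 and Ifi27l2a, which were each higher in the CDS library in at least 1 class. Among T-like cells 0 of 14 in the CDS library and 162 of 254 in the saline library, or 63.8% (57.5 to 69.7), had UMIs of at least 3 of the 10. The count of 0 of 14 leaves an exact 95% interval up to 23.2%. Among stromal-like cells the counts were 0 of 28 and 50 of 89, or 56.2% (45.3 to 66.7), with an upper bound of 12.3% in the CDS library. Dendritic-like cells had 0 of 5 and 30 of 44, or 68.2%, and B-like cells 0 of 11 and 55 of 138, or 39.9%. Only 254 of the 1440 saline T-like cells and 138 of the 1048 B-like cells reached the depth, so the shares describe the deeper ones.

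Macrophage-like cells passed this count in 11 of 130 cells of the CDS library, 8.46% (4.30 to 14.6), and in 36 of 136 of the saline library, 26.5% (19.3 to 34.7). Endothelial-like cells passed in 17 of 209, 8.13% (4.81 to 12.7), and in 35 of 275, 12.7% (9.03 to 17.3), intervals that overlap. Beta-like cells passed in 19 of 3322, 0.572%, and in 33 of 4688, 0.704%. The intervals, 0.345 to 0.892% and 0.485 to 0.987%, overlap. Alpha-like cells passed in 0 of 873 and 6 of 775, and delta-like cells in 1 of 399 and 5 of 444. A cut on the number of genes marks a range and no cell type, since 40 CDS beta-like cells lay 1 gene below it.

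**Figure D4:**
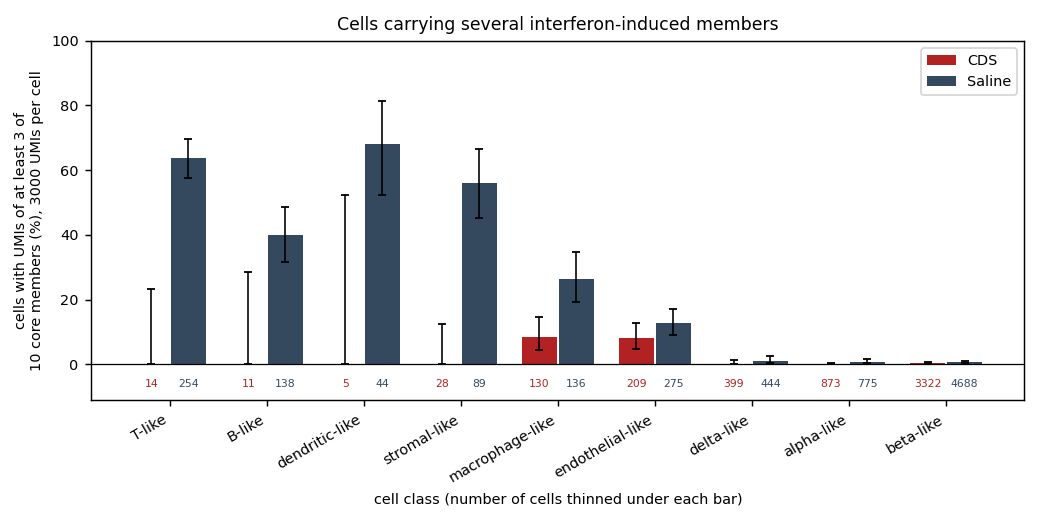
Percent of cells with UMIs of at least 3 of 10 core induced members at 3000 UMIs per cell, by class, CDS in red left of saline in dark blue, with exact Clopper-Pearson 95% intervals and the number of cells under each bar. Saline T-like, dendritic-like and stromal-like cells stand above 50%, while the CDS bars of those classes are at 0 on 14, 5 and 28 cells.

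Summed levels of the core members at full depth were lower in the CDS library in each of these classes except endothelial-like cells, where the sum was higher although the share of cells was not. In plain CPM, T-like cells had 95.03 in the CDS library (10 UMIs) and 2758 in the saline library (10426 UMIs), a ratio of 0.0345 (0.0165 to 0.0634). Stromal-like cells had 49.4 and 2051 CPM on 16 and 1887 UMIs, a ratio of 0.0241 (0.0137 to 0.0392), and B-like cells had 71.9 and 2079 CPM, a ratio of 0.0346. In scaled CPM, macrophage-like cells had 505 and 1846, a ratio of 0.273 (0.250 to 0.299), and endothelial-like cells 1283 and 850, a ratio of 1.51 (1.42 to 1.61). Beta-like cells had 63.1 and 77.5, a ratio of 0.814 (0.786 to 0.843), alpha-like cells 0.742 and delta-like cells 0.697.

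Class I chains differed less between the libraries than the core members in lymphoid cells. H2-K1 had 1359 CPM in CDS and 1441 CPM in saline T-like cells, a ratio of 0.943 (0.793 to 1.11), and B2m 922 and 1102, a ratio of 0.836 (0.677 to 1.02). Their intervals include 1, on 143 and 97 CDS UMIs. In B-like cells both were lower in the CDS library, H2-K1 at 669 and 1054 CPM, a ratio of 0.635 (0.510 to 0.781), and B2m at 647 and 841, a ratio of 0.770 (0.616 to 0.951), and H2-D1 stood at 0.711 (0.559 to 0.892). In stromal-like cells H2-K1 had 263 and 880 CPM, a ratio of 0.298 (0.236 to 0.373), and B2m had 374 and 708, a ratio of 0.528 (0.431 to 0.642). Ifi27 was not lower there, at 241 and 219 CPM and a ratio of 1.10 (0.838 to 1.44).

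Over all kept cells, the core members had 10713 UMIs in the CDS library and 35894 in the saline library. Beta-like cells held 51.1% of them in the CDS library and 19.5% in the saline library, and endothelial-like cells 21.2% and 4.48%. T-like cells held 0.09% and 29.1%, B-like cells 0.09% and 14.0%, stromal-like cells 0.15% and 5.26%. The cells holding 50% of a member's UMIs differed in class as well. For Isg15 they were 12 CDS cells, 7 of them endothelial-like, and 232 saline cells, with 44 T-like and 44 stromal-like. For Ifi27l2a they were 20 CDS cells, 16 of them macrophage-like, and 384 saline cells, 178 of them T-like. For Ifit2 they were 4 cells, all endothelial-like, in the CDS library, and 261 in the saline library, 113 of them B-like. H2-K1 was carried by 1367 CDS and 2203 saline cells, of which 994 and 1205 were beta-like.

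Across the 5 larger classes Ifi27 and B2m were higher in all 5, and H2-D1 and H2-K1 in the 4 other than macrophage-like cells. With plain CPM B2m passed the limit only in alpha-like cells, at 1.46. It stood at 0.970 (beta-like), 1.19 (delta-like), 1.195 (endothelial-like) and 1.13 (macrophage-like). H2-K1 then missed the limit at 1.15 (beta-like) and 1.20 (endothelial-like) but not at 1.41 (alpha-like) and 1.27 (delta-like). Ifi27 and H2-D1 passed it wherever they had been called. After the adjustment for gene length log2 ratios were 0.0 to 0.183 for H2-K1 in those 4 classes. For B2m they were 0.294 (alpha-like) and -0.044 to 0.06 elsewhere. For H2-D1 they were 0.276 (endothelial-like) to 0.391 (beta-like) in the same 4 classes, past the limit only in beta-like cells. For Ifi27 they were 0.178 (endothelial-like) to 0.61 (beta-like), past the limit in all classes but endothelial-like cells. Nlrc5, Ifih1 and Ifit3 were lower in 4. Ifit3 was measured in only those 4. Irf1, Ifi35, Igtp and Ifi44 were called in none. Rsad2 was lower in 3 classes and higher in endothelial-like cells, and Ifi27l2a lower in 3 and higher in macrophage-like cells. The classes share 2 libraries, so a like direction in several classes is no independent support.

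**Figure D5:**
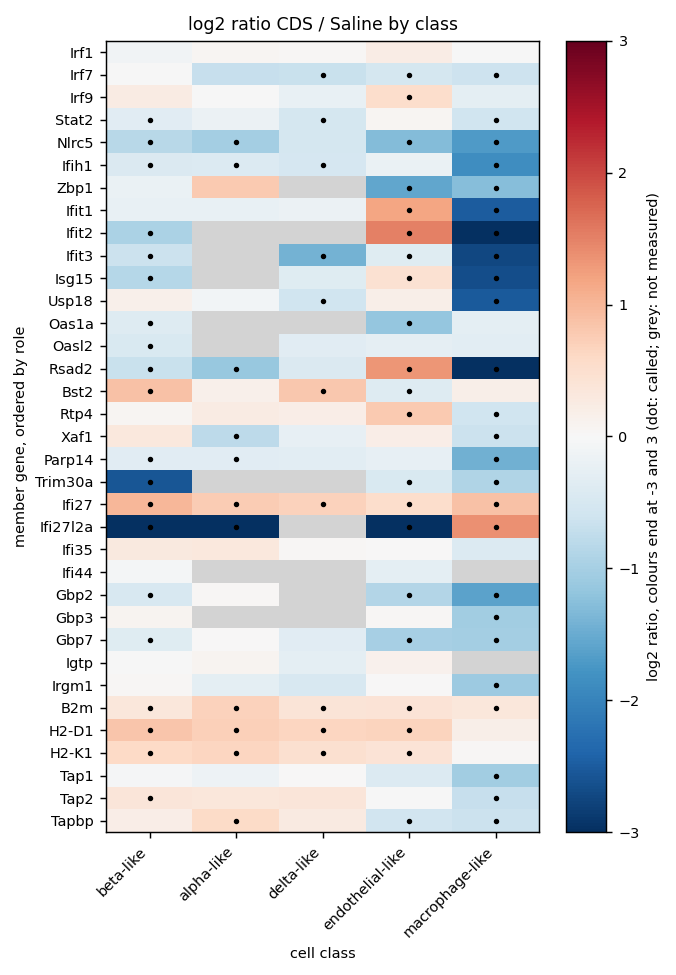
log2 ratio CDS over saline of each member (rows, by role) in 5 classes (columns), red for higher and blue for lower in the CDS library, with dots where a member was called and grey where it was not measured. The blue block of macrophage-like cells reaches log2 -4.65 for Ifit2, beyond the end of the colours, and the red rows are Ifi27, B2m (0.970 in beta-like cells with plain CPM), H2-D1 and H2-K1.

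Other genes of the pathway, 94 in all of which 90 are in the files, were read from a list by role. The list holds 5 ligands and no interferon alpha gene. Ifnb1, interferon beta, had 0 UMIs in the CDS library and 39 in the saline library, of which 26 came from 1 macrophage-like cell. Ifng had 0 and 11 UMIs, 8 of the saline ones in T-like cells. By the same calls 27.2% of all measured genes were higher and 18.2% lower in beta-like cells, and 17.6% and 12.0% in macrophage-like cells. Of the receptors 2 of 6 were higher in beta-like cells and none lower, not far from the share of all genes. They were Ifnar2, a chain of the type I receptor, at 1.49 and Ifngr2, a chain of the interferon gamma receptor, at 1.251, just past the limit. Ratios of these other pathway genes are given with TMM scaling only. Plain CPM moved the median of all genes in beta-like cells by -0.39. Of 34 measured other induced genes 2 were higher and 18 lower in beta-like cells, and in macrophage-like cells 2 of 26 were higher and 20 lower. Of 17 measured class I presentation genes 10 were higher and none lower in beta-like cells, while in macrophage-like cells 1 of 16 was higher and 7 lower.

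Among pathway genes with at least 100 UMIs over both libraries the highest ratios in beta-like cells were those of Psmb8, a subunit of the immunoproteasome that cuts peptides for class I, at 1.88 (1.79 to 1.99), of Ifitm2, a membrane protein that blocks virus entry, at 1.87 (1.74 to 2.01), and of Psme2, a proteasome activator, at 1.77 (1.71 to 1.84). The lowest were those of Sp100, a nuclear body protein, with 8 CDS and 138 saline UMIs and a ratio of 0.0603, Iigp1, a GTPase, at 0.215, and Ifitm3, a relative of Ifitm2, at 0.406. Cxcl10, an interferon-induced chemokine named after its values were seen, had 19 CDS and 293 saline UMIs in macrophage-like cells, a ratio of 0.0469 (0.0278 to 0.0745). In the same cells Ifitm2 stood at 2.78 (2.44 to 3.18).

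Some members resemble other genes at the end that the assay reads. The last 400 bases of the longest coding transcript matched another gene's transcript over all 400 bases for Ifit3, at 95% identity to Ifit3b, and for Oas1a, at 97.5% to Oas1g. Ifi27l2a matched Ifi27l2b at 90.7% over 236 bases, and H2-K1 matched H2-D1 at 92.1% over 127. Trim30a matched Trim30d at 82.2% over 409 aligned bases, Isg15 matched 4 other genes, at best 95.4% over 238 bases, and H2-D1 and Irgm1 held stretches of at least 100 bases that matched 425 and 432 other genes. Reads shared by such copies could have been assigned to either or dropped, so the counts of these members are uncertain to that extent. Ifit3b itself had 132 CDS and 217 saline UMIs in beta-like cells and a ratio of 0.633, beside 0.643 for Ifit3. On the same strand the span of Irf9 overlaps Rnf31, that of Rtp4 overlaps Gm45338, that of Igtp overlaps Irgm2 and that of Tapbp overlaps Zbtb22, and the strand setting of the counting is not given in the sources used here.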

How the data were processed

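Islet cells were measured in 2 droplet libraries, 1 per group, given by the labels. The deposited matrices hold raw counts of UMIs per gene and cell barcode, made by the authors with Cell Ranger on build mm10, per the file headers and the submitters' processing notes, which give its version as 7.1 and also list Seurat 4 and edgeR. Whether intronic reads were counted is not given in the sources used here. All 4 value-free name files served only as names, and every column of values was used.

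Totals were 141191447 UMIs over 7268 barcodes in the CDS library and 124343325 over 12453 in the saline library. Kept cells had at least 500 genes and 1000 UMIs and at most 20% mitochondrial UMIs. Scrublet in scanpy 1.11.5 then called 257 of 6415 CDS cells and 617 of 11591 saline cells doublets, which were removed. Each cell was gated on marker genes, none of them a member, with thresholds set after marker distributions were seen. No gate fitted 874 CDS and 1496 saline cells, and 107 and 109 cells lay near the insulin gate.

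UMIs were summed per class and library and scaled with TMM factors (edgeR 4.0.16 in R 4.3.3). Ratios have exact conditional Poisson intervals and shares Clopper-Pearson intervals at 95%, from scipy 1.17.1, all for counting error only. With 1 library per group no test between groups was made. The ranks named in detail were the 6 highest and 6 lowest ratios in beta-like cells and the 3 highest and 3 lowest in each other class, among members with at least 100 UMIs, and of other pathway genes the 3 highest and 3 lowest in beta-like cells. Gene spans came from GENCODE on mm10 for 32235 genes, promoters from RefSeq, and similar 3′ ends from blastn 2.17.0. The members and lists were chosen with earlier results of these data known. Alternatives covered cell filters, doublets, Leiden clusters, scaling (also DESeq2 1.42.0 size factors), cell means, depth and gene length.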

Additional observations from a re-analysis of the deposited data

Results flagged for a closer look

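Some members were called higher in one class and lower in another. The difference between classes was not tested, since each group had 1 library. All values are ratios CDS over saline of scaled CPM.

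Ifit1 stood at 2.29 in endothelial-like and 0.178 in macrophage-like cells. Ifit2 stood at 2.86 in endothelial-like cells, at 0.0399 in macrophage-like cells and at 0.520 in beta-like cells. For Isg15 the values in the same 3 classes were 1.38, 0.158 and 0.555. For Rsad2 they were 2.51, 0.0764 and 0.633, and alpha-like cells had 0.455. Rtp4 stood at 1.72 in endothelial-like and 0.656 in macrophage-like cells. In endothelial-like cells the ratios of Isg15 and Rsad2 turned below 1 when shares of thinned cells were compared, and 3 CDS cells held 50% of the Rsad2 UMIs.

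Ifi27l2a stood at 2.58 in macrophage-like cells and at 0.108 in beta-like, 0.0730 in alpha-like and 0.0229 in endothelial-like cells. Bst2 stood at 1.84 in beta-like, 1.75 in delta-like and 0.769 in endothelial-like cells. Tap2 stood at 1.29 in beta-like cells, turning to 0.985 with plain CPM, and at 0.619 in macrophage-like cells. Tapbp stood at 1.48 in alpha-like, 0.668 in endothelial-like and 0.635 in macrophage-like cells.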

How the results depend on the processing

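No paired analysis was possible because each group had 1 library. Looser and stricter cell filters, doublets kept, median-of-ratios size factors and leaving out shared barcodes moved no count of called members by over 1.5 times. Leaving out shared barcodes was chosen after seeing the data. So was the use of cells free of B, T, natural killer, macrophage, dendritic, neutrophil and endothelial markers, called marker-free here. Plain CPM gave 3 higher and 22 lower in beta-like cells and 10 lower in delta-like cells, and CPM without hormone, enzyme and mitochondrial genes gave 10 lower in delta-like and 6 higher in endothelial-like cells. Means over cells gave 5 lower in beta-like and 8 in delta-like cells. Thinning left 7 lower in beta-like cells, 2 in alpha-like cells, 0 in delta-like cells and 9 in macrophage-like cells, and in endothelial-like cells 3 higher and 6 lower. Shares of thinned cells gave 3 higher in beta-like cells, 3 higher and 2 lower in alpha-like cells, 2 higher and 2 lower in delta-like cells, 0 higher and 1 lower in endothelial-like cells and 1 lower in macrophage-like cells. Adjustment for gene length gave 2 higher in alpha-like cells, 3 higher and 10 lower in delta-like cells and 4 higher in endothelial-like cells. With 1 UMI in each library as the minimum, 10 were lower in alpha-like and 9 in delta-like cells, more members being measured. Leiden clusters gave 3 lower in delta-like cells. Marker-free cells gave 9, 3 and 3 lower in beta-like, alpha-like and delta-like cells. The shares of all genes called are given only for the TMM-scaled ratios defined above, so the counts in this paragraph lack that background.

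Directions turned as follows. In beta-like cells Isg15 was 1.22 thinned and 1.05 in marker-free cells, Oas1a 1.09 thinned, Tap2 0.985 with plain CPM and 0.953 as a share of cells, and B2m 0.970 with plain CPM and 0.970 adjusted for length. In endothelial-like cells shares gave Isg15 0.579, Rsad2 0.804, Rtp4 0.998 and Irf9 0.998, and thinning gave Irf9 0.996. In macrophage-like cells Tapbp was 1.02 as a share, and B2m 0.999 as a share and 0.988 adjusted for length. Over all settings H2-D1 in beta-like cells kept a ratio between 1.27 and 1.81, H2-K1 between 1.08 and 1.56, Ifi27 between 1.39 and 2.09 and Ifi27l2a between 0.0570 and 0.112. Apart from settings that change the scale or what is measured, the cause of these moves was not tested.

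With at least 2 core members the percent of cells was 1.78 and 2.54 in CDS and saline beta-like cells, 0.458 and 2.71 in alpha-like and 23.1 and 39.0 in macrophage-like cells, and in saline cells 4.28 in delta-like, 20.7 in endothelial-like and 71.7 in T-like cells. With at least 4 it was 0.363 in saline beta-like, 0.129 in alpha-like, 52.8 in T-like and 43.8 in stromal-like cells, and 0 in CDS delta-like cells. Depth limits the small classes most, since CDS T-like cells held 10 core UMIs in all.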
